A study of Homo sapiens with 4 samples.

Results

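The 10 genes described here encode 5 CXC chemokines (CXCL1, CXCL2, CXCL3, CXCL5 and CXCL8), the CC chemokine CCL20, the cytokines IL18 and LIF, and the NF-kappaB feedback inhibitors NFKBIA and TNFAIP3. They were found as every probe set whose platform annotation named 1 gene alone, that gene being 1 of these 10. This gave 17 probe sets for 10 of the 19777 genes named in that way. The samples were a CD133+ clone and a CD133- clone, each on 2 arrays, of SW620, a human colon cancer cell line established from a lymph node metastasis. CD133, the product of PROM1, is a surface protein used to mark tumour-initiating cells. Per the labels, sorted single cells were grown in Leibovitz's L-15 medium with serum and antibiotics, no drug is named for either clone, and the expanded clones were sorted on CD133 once more before RNA extraction. Each group is 1 clone, so the effects of CD133 status and of the clone cannot be told apart. The labels do not state whether its arrays came from separate cultures. The p-values thus rest on array-to-array spread alone, and that spread may be technical.

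NF-kappaB is a family of dimeric transcription factors held in the cytoplasm by IkappaB proteins until kinases downstream of cytokine and microbial receptors mark the inhibitor for destruction. The released dimers bind kappaB sites and switch on chemokine and cytokine genes, and they also switch on their own inhibitors, IkappaB-alpha (NFKBIA) and A20 (TNFAIP3), which end the signal. In the intestinal epithelium CXCL1, CXCL2, CXCL3, CXCL5 and CXCL8 attract neutrophils, CCL20 attracts cells that carry CCR6, IL18 is stored as a precursor cleaved by caspase-1, and LIF signals through LIFR and the shared subunit gp130.

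The sequence in front of the genes is shown because kappaB sites link these genes to the pathway. RefSeq promoters (build GRCh38.p14) were matched for 8 of the 10 genes, all but IL18 and LIF. Each line gives the 100 bases from 120 to 21 bases before the annotated transcription start, on the gene's strand and 5′ to 3′, and capitals mark matches to GGAATTTCC or to the kappaB consensus on either strand.
CXCL1, chr4:73869273-73869372, plus strand: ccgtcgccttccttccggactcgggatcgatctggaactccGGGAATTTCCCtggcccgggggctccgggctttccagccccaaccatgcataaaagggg
CXCL2, chr4:74099216-74099315, minus strand: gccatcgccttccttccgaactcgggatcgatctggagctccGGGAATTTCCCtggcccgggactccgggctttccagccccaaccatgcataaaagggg
CXCL3, chr4:74038710-74038809, minus strand: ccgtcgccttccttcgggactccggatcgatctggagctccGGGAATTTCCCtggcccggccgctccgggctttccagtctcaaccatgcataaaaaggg
CXCL5, chr4:73998698-73998797, minus strand: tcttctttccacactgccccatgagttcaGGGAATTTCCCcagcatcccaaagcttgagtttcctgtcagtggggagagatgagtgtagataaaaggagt
CXCL8, chr4:73740449-73740548, plus strand: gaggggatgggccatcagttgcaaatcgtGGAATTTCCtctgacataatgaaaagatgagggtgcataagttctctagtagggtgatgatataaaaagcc
CCL20, chr2:227813722-227813821, plus strand: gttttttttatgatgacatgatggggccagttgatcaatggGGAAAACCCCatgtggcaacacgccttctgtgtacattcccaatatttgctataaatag
NFKBIA, chr14:35404770-35404869, minus strand: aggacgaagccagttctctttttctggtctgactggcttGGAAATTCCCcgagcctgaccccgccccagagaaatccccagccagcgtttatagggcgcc
TNFAIP3, chr6:137867139-137867238, plus strand: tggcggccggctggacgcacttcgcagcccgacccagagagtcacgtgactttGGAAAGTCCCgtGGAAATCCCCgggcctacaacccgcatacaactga

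The 9-letter motif GGAATTTCC, read on both strands, was present in 6 of the 8 promoters, those of the 5 CXC chemokines and of NFKBIA, with its first base 77 to 91 bases before the start. Of 27305 promoters of the same length (300 bases, of which 250 lie before the start), 129 or 0.472% held it. The kappaB consensus searched, GGGRNWYYCC, overlaps that motif (R is A or G, W is A or T, Y is C or T and N is any base). It was present in 7 of the 8 promoters, all but that of CXCL8, against 5.72% of promoters in general. The CXCL8 promoter holds GGAATTTCC but lacks the further G before it or C after it that a match needs. The promoters of CXCL1 and CXCL3 were identical at 82.5% of aligned positions, and those of CXCL2 and CXCL3 at 73.8%. Those of CXCL1 and CXCL2 were identical at 71.9%. The promoters of CXCL5 and CXCL8 matched these 3 at 45.2% to 55.4%. Those of CCL20, NFKBIA and TNFAIP3 matched the same 3 at 47.6% to 55.7%, a similar range. A match describes the letters and is not evidence that a factor binds there.

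Arrays were compared on quantile-normalized log2 signals, and a difference is always CD133+ minus CD133-. PROM1 checked the labels, with 8.46 and 8.73 on the CD133+ arrays, against 3.31 and 3.35 on the CD133- arrays. Colon epithelial markers had summed linear signals of 40718 to 40990 on the CD133+ arrays, against 42831 to 43917 on the CD133- arrays over 10 of 10 markers, while PTPRC, the pan-leukocyte marker, read 3.88 and 3.81 on the CD133+ arrays, against 3.55 and 3.59 on the CD133- arrays, with a mean below the level floor of 3.75 described next. The 9 leukocyte markers on the array summed to 232.5 to 243.8 on the CD133+ arrays, against 237.3 to 239.4 on the CD133- arrays. ACTB control probe sets at the 3' and 5' ends, whose log2 gap grows as RNA is shortened, differed by 0.71 and 1.92 on the CD133+ arrays, against 1.18 and 0.92 on the CD133- arrays. The same gap for GAPDH was 0.097 and 0.090 on the CD133+ arrays, against 0.017 and 0.026 on the CD133- arrays. For GAPDH both CD133+ arrays had wider gaps than both CD133- arrays. CD133+ replicate 2, the widest for ACTB, was just below CD133+ replicate 1 for GAPDH.

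Genes in the lowest 20% of mean signal, below 3.75, were left out of the test. Of the 10 genes 9 lay above this floor, and CXCL5 did not. In the limma fit over 15821 genes, CXCL2, CXCL3, CCL20, IL18 and LIF were lower in CD133+ cells at an adjusted p under 0.05, which is 5 of the 9 tested, and 0 were higher. Over all genes tested 2.34% were lower and 1.31% were higher by the same rule. Both CD133+ arrays lay below both CD133- arrays in 6 of the 9, against 21.2% of all genes, and the groups overlapped in the other 3, which were CXCL8, NFKBIA and TNFAIP3. The genes were picked with earlier results of these data known, so these counts describe them and carry no test.

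The overall balance depended on the scaling, since 35.9% of called genes were higher after quantile normalization, 21.1% on the deposited scale and 11.4% with centred arrays. The median difference of all genes was 0.058, 0.028 and -0.051 in these settings, whereas the median of the 9 genes was -0.72, -0.77 and -0.85.

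**Figure D1:**
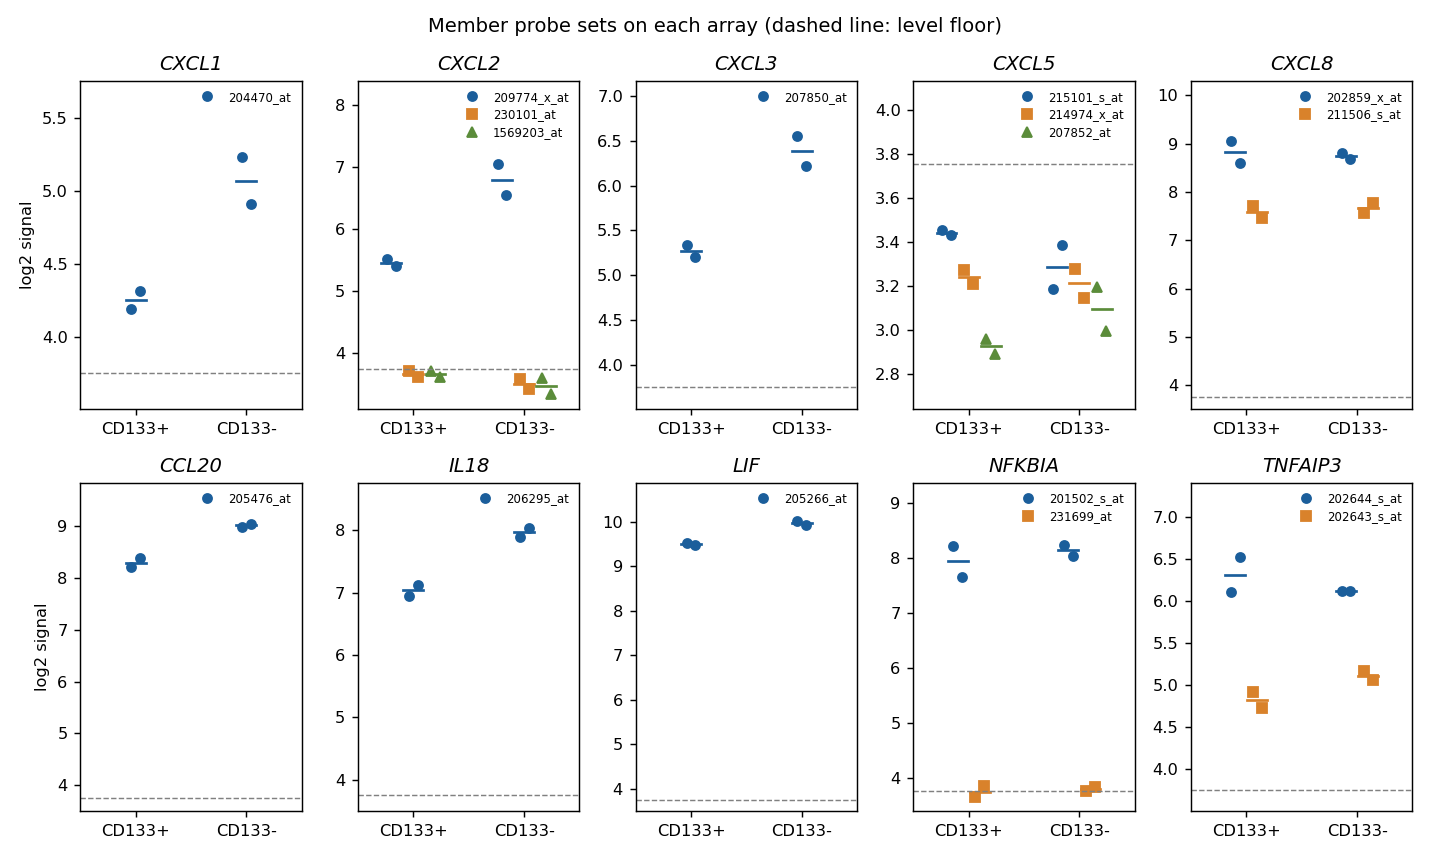
Log2 signal of each of the 17 probe sets (vertical axis) on each CD133+ and CD133- array (horizontal axis), with points for arrays, short lines for the mean of 2 arrays, a colour and marker for each probe set and a dashed line at the level floor of 3.75. Of the probe sets above the floor, those of CXCL1, CXCL2 (209774_x_at), CXCL3, CCL20, IL18, LIF and TNFAIP3 (202643_s_at) have both CD133+ arrays below both CD133- arrays. The other CXCL2 probe sets lie below the floor, with both CD133+ arrays above both CD133- arrays. The 3 CXCL5 probe sets also lie below the floor.

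Among the neutrophil chemokines, CXCL2 had the largest difference of the 9 genes. Its probe set 209774_x_at read 5.51 and 5.41 on the CD133+ arrays, against 7.04 and 6.54 on the CD133- arrays. The groups were separate, and the CD133- arrays stood further from each other than the CD133+ arrays did. The difference was -1.33 (SE 0.23, 2.52-fold lower, 95% interval -1.87 to -0.80, limma adjusted p = 0.0232). The other probe sets of CXCL2, 230101_at and 1569203_at, read 3.62 to 3.72 on the CD133+ arrays, against 3.35 to 3.60 on the CD133- arrays, below the floor, with differences of 0.16 and 0.19. With the mean of its 3 probe sets the difference of CXCL2 was -0.33 (adjusted p = 0.335). The suffix x marks probe sets with probes that also match other transcripts, and CXCL1, CXCL2 and CXCL3 are closely similar genes, so 209774_x_at may read more than CXCL2. Without CD133- replicate 1 the limma adjusted p of CXCL2 was 0.114, with a difference of -1.08.

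CXCL3 read 5.33 and 5.20 on the CD133+ arrays, against 6.55 and 6.22 on the CD133- arrays (207850_at). The lowest CD133- array was 0.89 above the highest CD133+ array. It fell by 1.12 on the log2 scale (SE 0.22, 2.17-fold lower, limma adjusted p = 0.0347). Of the 12 alternatives it passed 7, fewer than the 9 of CXCL2 and the 9 of CCL20, with an adjusted p of 0.0532 without CD133+ replicate 1, 0.0903 without CD133+ replicate 2, 0.170 without CD133- replicate 1 and 0.0512 on the deposited scale. CXCL1 read 4.19 and 4.31 on the CD133+ arrays, against 5.23 and 4.91 on the CD133- arrays (204470_at). It was separate between the groups in the same direction, yet its difference of -0.82 (SE 0.20, 95% interval -1.28 to -0.36) did not pass over all genes (limma adjusted p = 0.0661). Its mean signal was below the median of all genes, and it fell out of the test when only genes above the median level were kept.

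CXCL8, interleukin-8, overlapped between the clones. Its probe set 202859_x_at read 9.07 and 8.60 on the CD133+ arrays, against 8.81 and 8.67 on the CD133- arrays. This probe set also has the suffix x, so it may read more than CXCL8. The second CXCL8 probe set, 211506_s_at, read 7.71 and 7.47 on the CD133+ arrays, against 7.57 and 7.78 on the CD133- arrays. Neither probe set separated the groups, with differences of 0.088 (95% interval -0.28 to 0.46, limma adjusted p = 0.794) and -0.084. The first was at -0.0075 on the deposited scale and at -0.086 with centred arrays, so its sign depended on the scaling. The interval leaves out a fall as large as that of CXCL2 or CXCL3 in this fit. The difference between CXCL8 and these genes was not tested.

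CXCL5 had 3 probe sets, all below the floor, at 2.89 to 3.45 on the CD133+ arrays, against 2.995 to 3.39 on the CD133- arrays. Their differences were 0.16, 0.030 and -0.17, and no direction is given for it.

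These 5 genes lie together on chromosome 4, in the order CXCL8, CXCL1, CXCL5, CXCL3 and CXCL2 among the protein-coding genes of RefSeq. Of the genes between them, PF4 was the only tested gene, at 0.23 (limma adjusted p = 0.503), while CXCL6, PF4V1 and PPBP lay below the floor. On the CXCL2 side MTHFD2L was at -0.022 (adjusted p = 0.959), and EREG, a ligand of the EGF receptor named here after its value was seen, read 9.36 and 9.31 on the CD133+ arrays, against 9.96 and 9.91 on the CD133- arrays. EREG fell by 0.60 (SE 0.095, limma adjusted p = 0.0190), with an adjusted p of 0.144 when CD133- replicate 1 was left out, 0.0570 when CD133- replicate 2 was, and 0.0852 with the mean of its probe sets. On the CXCL8 side RASSF6 was at -0.49 (adjusted p = 0.0871). CXCL3 and CXCL2, the genes of the cluster that passed, were thus next to each other. Among the tested genes, PF4 lay between CXCL1 and CXCL3, and MTHFD2L lay between CXCL2 and EREG.

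**Figure D2:**
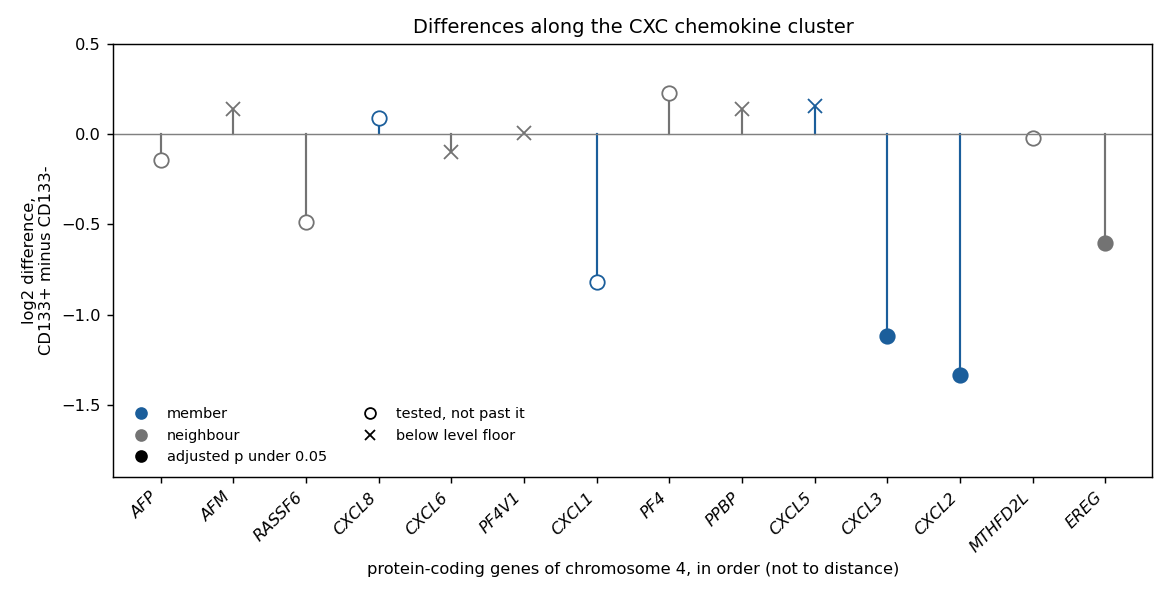
Log2 difference, CD133+ minus CD133- (vertical axis), of genes with a probe set along the CXC chemokine cluster, in chromosomal order but not to distance (horizontal axis), with members in blue and neighbours in grey. Filled circles passed a limma adjusted p of 0.05 (CXCL3, CXCL2 and EREG), open circles did not, and crosses lie below the level floor.

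CCL20, the ligand of CCR6, read 8.21 and 8.38 on the CD133+ arrays, against 8.99 and 9.05 on the CD133- arrays (205476_at). The groups were well apart and the arrays of each clone lay close together. It fell by 0.72 (SE 0.12, 1.65-fold lower, limma adjusted p = 0.0212). Leaving out CD133- replicate 1 gave an adjusted p of 0.111, and leaving out CD133- replicate 2 gave 0.0699.

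IL18, a cytokine of the interleukin-1 family made by colon epithelium, read 6.95 and 7.12 on the CD133+ arrays, against 7.89 and 8.04 on the CD133- arrays (206295_at). The lowest CD133- array was 0.77 above the highest CD133+ array. IL18 fell by 0.93 (SE 0.16, 1.91-fold lower, 95% interval -1.29 to -0.57, limma adjusted p = 0.0222). Leaving out CD133- replicate 1 gave an adjusted p of 0.0837 and leaving out CD133- replicate 2 gave 0.0699.

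LIF, leukaemia inhibitory factor, read 9.53 and 9.47 on the CD133+ arrays, against 10.02 and 9.93 on the CD133- arrays (205266_at). It was the smallest of the 5 falls, and the arrays of each clone differed by less than 0.1. LIF fell by 0.47 (SE 0.096, 1.39-fold lower, limma adjusted p = 0.0389). The adjusted p was 0.0538 without CD133+ replicate 2, 0.304 without CD133- replicate 1, 0.0923 without CD133- replicate 2, 0.0594 on the deposited scale, 0.0638 with centred arrays and 0.0681 with the mean of probe sets, an alternative in which LIF itself kept its value.

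The feedback inhibitors, which NF-kappaB itself induces, did not separate the clones. NFKBIA read 8.23 and 7.66 on the CD133+ arrays, against 8.24 and 8.04 on the CD133- arrays (201502_s_at), and its difference was -0.19 (95% interval -0.65 to 0.26, limma adjusted p = 0.609). A second NFKBIA probe set, 231699_at, read 3.65 and 3.85 on the CD133+ arrays, against 3.76 and 3.83 on the CD133- arrays, near the floor. TNFAIP3 read 6.10 and 6.53 on the CD133+ arrays, against 6.12 and 6.12 on the CD133- arrays (202644_s_at), a difference of 0.20 (95% interval -0.31 to 0.71, limma adjusted p = 0.647). Its other probe set, 202643_s_at, read 4.92 and 4.72 on the CD133+ arrays, against 5.16 and 5.06 on the CD133- arrays. There the groups were separate and the difference had the opposite sign, -0.29 (95% interval -0.78 to 0.21 in the fit over probe sets).

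The 3 genes whose groups overlapped had CD133+ arrays that differed from each other, by 0.56 for NFKBIA, 0.47 for CXCL8 and 0.43 for TNFAIP3, against 0.20, 0.14 and 0.0041 on the CD133- arrays. Without CD133+ replicate 2, which had the widest gap between the ends of ACTB, NFKBIA was at 0.087, CXCL8 at 0.32 and TNFAIP3 at -0.015. The part of RNA length in these values was not tested.

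Fitted as single probe sets over the 37067 above the floor, 12 of the 17 could be tested and 0 passed a limma adjusted p of 0.05, where 0.507% of all probe sets did. At an unadjusted p under 0.05 there were 6, the probe sets of CXCL1, CXCL2, CXCL3, CCL20, IL18 and LIF, all lower, where 8.75% of all probe sets tested were lower by that rule. Their adjusted p ran from 0.0606 for IL18 to 0.141 for CXCL1. The differences are the same values as in the gene fit, and only the spread borrowed from other features and the number of tests changed. Without the trend of variance on level, no member passed in the gene fit either, with adjusted p of 0.0773 for CXCL2 and CXCL3, 0.0776 for IL18, 0.0959 for CCL20 and 0.154 for LIF.

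**Figure D3:**
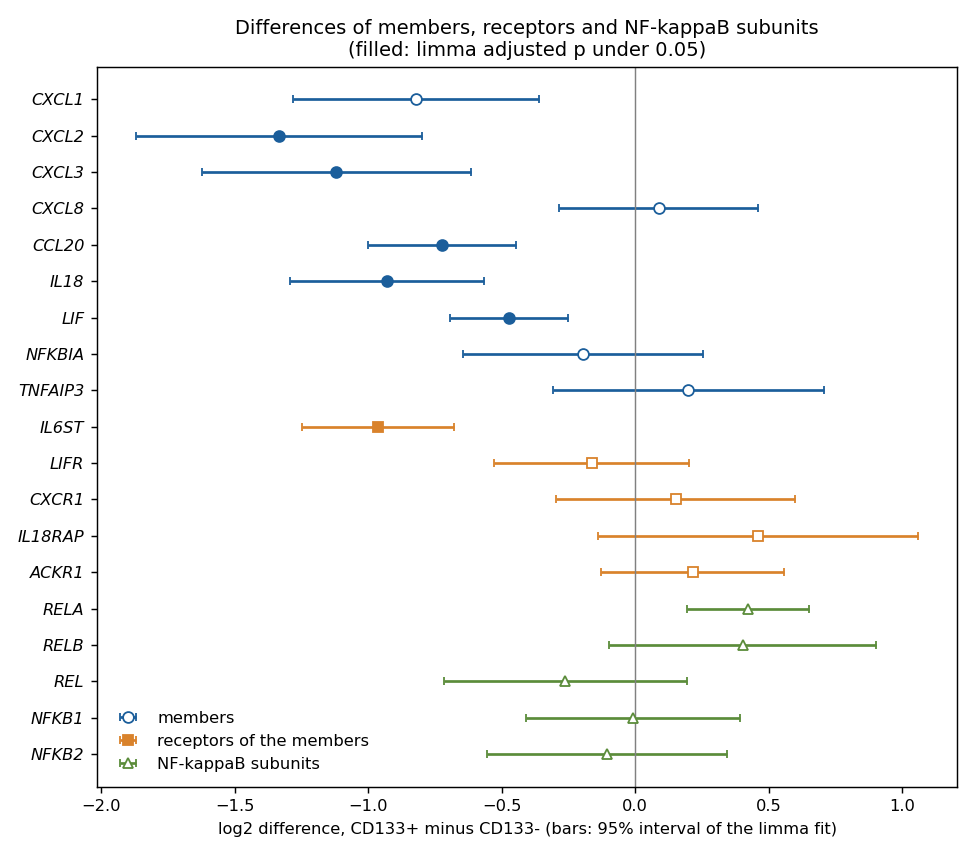
Log2 difference, CD133+ minus CD133- (horizontal axis), of the 9 tested members, the 5 tested receptor genes and the 5 NF-kappaB subunits, with bars for the 95% interval of the limma fit and filled markers for an adjusted p under 0.05. CXCL2, CXCL3, CCL20, IL18, LIF and IL6ST are filled, all to the left of 0, and no NF-kappaB subunit is.

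The receptors that read these signals were mostly near or below the floor. CXCR2, the main receptor of the neutrophil chemokines, read 3.48 and 3.27 on the CD133+ arrays, against 3.08 and 3.30 on the CD133- arrays, and CCR6 and IL18R1 were below the floor as well. CXCR1 was at 0.15 (limma adjusted p = 0.697, -0.022 to 0.33 leaving out 1 array). LIFR was at -0.16 (adjusted p = 0.599, -0.28 to -0.048 leaving out 1 array). IL18RAP was at 0.46 (adjusted p = 0.354, 0.14 to 0.78 leaving out 1 array). ACKR1 was at 0.21 (adjusted p = 0.453, 0.17 to 0.26 leaving out 1 array). IL6ST, which encodes gp130, the subunit that LIF shares with IL6 and IL11, was the exception. It read 8.22 and 8.45 on the CD133+ arrays, against 9.32 and 9.27 on the CD133- arrays. IL6ST fell by 0.96 (SE 0.12, 1.95-fold lower, limma adjusted p = 0.0108), and 6 of its 7 probe sets had this sign. With the mean of these probe sets it was at -0.28 (adjusted p = 0.353), and without CD133- replicate 1 its adjusted p was 0.0519. LIF and IL6ST, the latter as read by its brightest probe set, were both lower in the CD133+ clone. A link between them was not tested.

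None of the 8 genes that relay the LIF signal passed. SOCS3, a STAT3 target that dampens gp130 signalling, was at -0.44 (limma adjusted p = 0.395), with 1 of 4 probe sets having this sign, and STAT3 was at 0.16 (adjusted p = 0.539). Leaving out CD133+ replicate 1 put SOCS3 at -0.045, leaving out CD133+ replicate 2 put it at -0.84, and STAT3 was at -0.077 with centred arrays. None of 5 tested genes of IL18 maturation and restraint passed, among them IL18BP, the IL18 decoy, at 0.43 (adjusted p = 0.467) and NLRP1, an inflammasome sensor, at 0.42 (adjusted p = 0.266). IL18BP ranged from 0.041 without CD133+ replicate 2 to 0.81 without CD133+ replicate 1. The 5 probe sets of NLRP1 ran from -0.31 to 0.42, and 3 of them were positive.

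None of the 5 NF-kappaB subunit genes passed. RELA, the p65 subunit, read 9.59 and 9.62 on the CD133+ arrays, against 9.15 and 9.21 on the CD133- arrays. The groups were separate, with RELA 0.42 above CD133- (SE 0.099, limma adjusted p = 0.0597). The adjusted p of RELA was 0.0494 when only genes above the median level were kept, but 0.139 on the deposited scale, 0.170 without the variance trend, 0.225 with the mean of probe sets and 0.0797 to 0.371 leaving out 1 array. With centred arrays RELA was at 0.28 (adjusted p = 0.353). RELB was at 0.40 (adjusted p = 0.336), REL at -0.26 (adjusted p = 0.488) and NFKB1 at -0.0087 (adjusted p = 0.983). The 5 probe sets of REL were all negative and ran from -1.04 to -0.090, so the size of its difference depended on the probe set. With the mean of these probe sets REL was at -0.46 and did not pass. Leaving out 1 array, RELB ranged from 0.26 to 0.54, REL from -0.36 to -0.17 and NFKB1 from -0.18 to 0.16.

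Upstream, 1 of 23 kinases and adaptors was lower and 0 were higher. RBCK1, the HOIL-1 subunit of the linear ubiquitin ligase that activates the IkappaB kinase complex, read 11.90 and 11.90 on the CD133+ arrays, against 12.28 and 12.20 on the CD133- arrays, and fell by 0.34 (SE 0.072, limma adjusted p = 0.0436). CARD10 was at 0.54 (adjusted p = 0.0628) and TRAF5 at -0.26 (adjusted p = 0.184). CARD10 passed without CD133+ replicate 1 (adjusted p = 0.0112) and had 0.189 with centred arrays. Of 12 receptors that start NF-kappaB signalling 0 passed, with TNFRSF1A, the main TNF receptor, at 0.47 (adjusted p = 0.0585), NOD1 at 0.62 (adjusted p = 0.115) and IL17RC at 0.43 (adjusted p = 0.355). TNFRSF1A had 0.0478 when only genes above the median level were kept, but 0.178 on the deposited scale and 0.0613 to 0.309 leaving out 1 array, and with centred arrays it was at 0.30 (adjusted p = 0.378). IL17RC ranged from 0.12 without CD133- replicate 1 to 0.75 without CD133- replicate 2, and 3 of its 4 probe sets were positive.

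Among 15 other inhibitors and feedback genes, 1 rose and 0 fell. TAX1BP1, an adaptor that A20 uses, read 11.35 and 11.48 on the CD133+ arrays, against 10.74 and 10.95 on the CD133- arrays, and rose by 0.57 (SE 0.097, limma adjusted p = 0.0225) with the same sign in 3 of 3 probe sets. TNFAIP8, a TNF-induced gene that is not itself an NF-kappaB inhibitor, was at -1.41 (adjusted p = 0.0717), with 2 of 3 probe sets having this sign. The CYLD deubiquitinase was at 0.45 (adjusted p = 0.298), with this sign in 5 of 7 probe sets. TNFAIP8 read 5.55 and 4.38 on the CD133+ arrays, against 6.40 and 6.34 on the CD133- arrays, so its CD133+ arrays were far apart. It was at -1.99 without CD133+ replicate 1 (limma adjusted p = 0.00254), at -0.82 without CD133+ replicate 2 (adjusted p = 0.193) and at -1.51 with centred arrays (adjusted p = 0.0450). CYLD ranged from 0.24 to 0.67 leaving out 1 array.

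Of 18 other NF-kappaB targets 1 rose and 0 fell. LCN2, a siderophore-binding lipocalin, read 6.33 and 6.21 on the CD133+ arrays, against 4.62 and 4.96 on the CD133- arrays, and rose by 1.48 (SE 0.22, 2.79-fold higher, limma adjusted p = 0.0161). CFB, complement factor B, was at 0.62 (adjusted p = 0.154) and PLAU, urokinase, at -0.36 (adjusted p = 0.0802).

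Of 12 other chemokine genes above the floor 1 fell and 0 rose. CCL28, a mucosal chemokine that binds CCR10, read 6.06 and 5.73 on the CD133+ arrays, against 6.96 and 6.87 on the CD133- arrays. It fell by 1.02 (SE 0.21, limma adjusted p = 0.0382), with the same sign in 3 of 3 probe sets. XCL1 was at 0.40 (adjusted p = 0.161) and CX3CL1 at 0.44 (adjusted p = 0.312), which ranged from 0.26 to 0.62 leaving out 1 array. With centred arrays XCL1 was at 0.18, and its 2 probe sets ran from -0.19 to 0.40. Of 19 other cytokine genes 1 rose and 0 fell. IL23A, the p19 subunit of interleukin-23, read 10.22 and 10.37 on the CD133+ arrays, against 9.66 and 9.79 on the CD133- arrays, and rose by 0.57 (SE 0.10, limma adjusted p = 0.0246), with this sign in 3 of 4 probe sets. IL11, which signals through gp130, was at -0.83 (adjusted p = 0.0592), with -0.0062 in its other probe set. TNFSF10, the death ligand TRAIL, was at -0.81 (adjusted p = 0.0857). IL11 had 0.0467 when only genes above the median level were kept, and 0.0851 to 0.300 leaving out 1 array.

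Over these 10 lists together, 3 of 122 tested genes fell and 3 rose. The share that fell was near the 2.34% of all genes tested. The share that rose was above the 1.31% of all genes tested, but it rests on 3 genes. The list medians ran from -0.043 for the kinases and adaptors to 0.27 for the other cytokines, beside 0.058 for all genes. None of the 6 genes called here passed without CD133- replicate 1, with limma adjusted p from 0.0519 for IL6ST to 0.337 for RBCK1. Without CD133- replicate 2 CCL28 had 0.0655, IL23A 0.0504 and RBCK1 0.0985, and without CD133+ replicate 2 CCL28 had 0.116. With the mean of probe sets CCL28 had 0.0652, IL23A 0.462 and RBCK1 0.252, and with centred arrays IL23A had 0.0989. Without the variance trend the 6 had 0.0597 to 0.230.

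**Figure D4:**
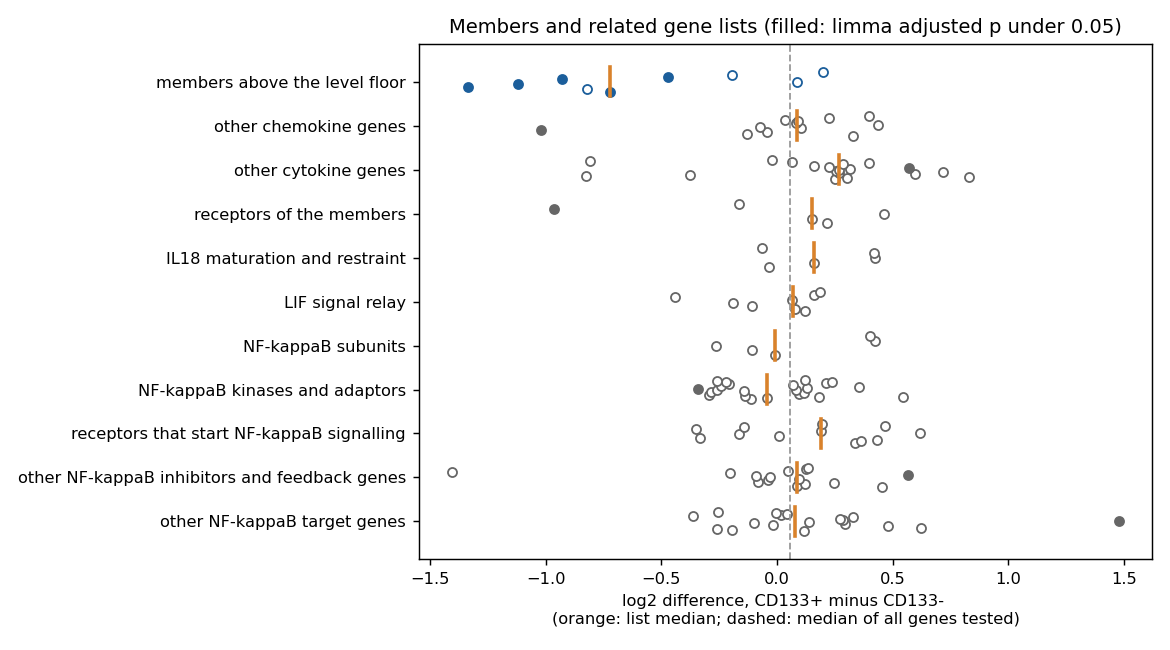
Log2 difference, CD133+ minus CD133- (horizontal axis), of the members above the level floor (top, blue) and of the tested genes of 10 related lists (grey), with filled points for a limma adjusted p under 0.05, orange bars for list medians and a dashed line for the median of all genes tested. The members' median is -0.72, and the list medians lie between -0.043 and 0.27.

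The genes with the 9-letter motif differed among themselves. Of the 6 genes whose promoters hold GGAATTTCC, CXCL2 and CXCL3 fell, CXCL1 was at -0.82 without passing, CXCL8 and NFKBIA overlapped between the clones and CXCL5 lay below the floor. Of the 47 other tested genes with this motif 2, or 4.26%, were lower and 0 were higher, with a median difference of 0.047. The 12446 tested genes whose promoters lack it had a median of 0.051, with 2.49% lower. For the kappaB consensus, 2.38% of 840 genes with it and 2.51% of 11653 genes without it were lower.

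**Figure D5:**
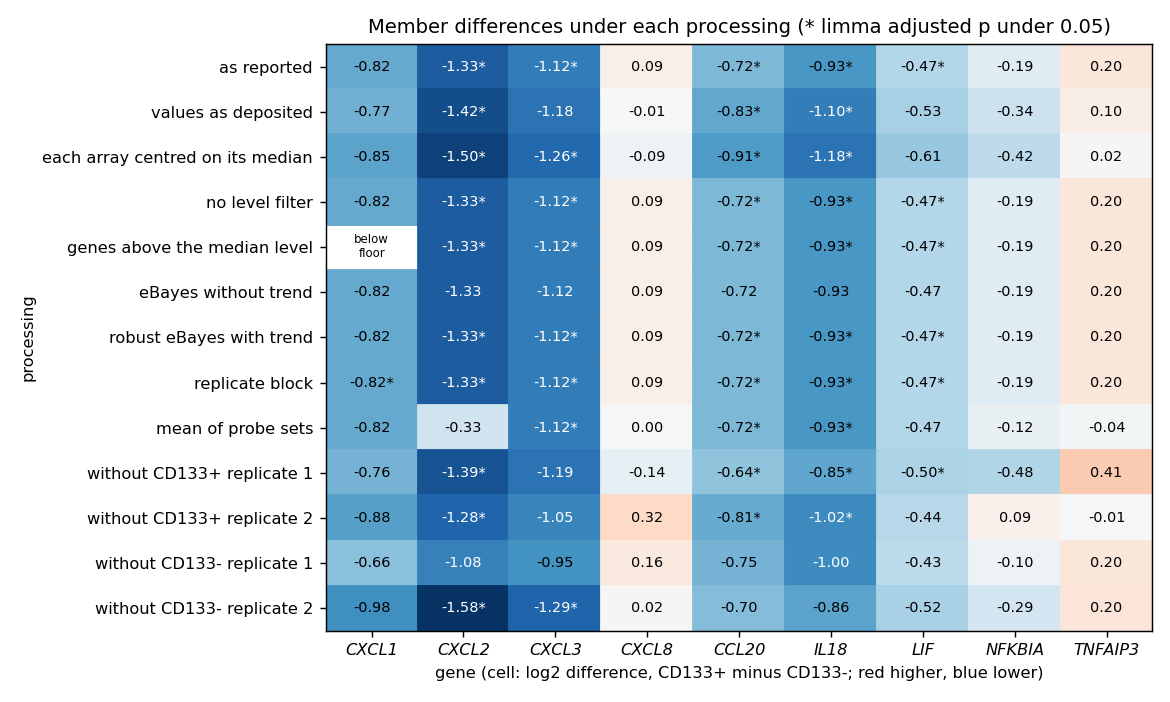
Log2 difference, CD133+ minus CD133-, of each tested member (columns) under each processing (rows), with an asterisk for a limma adjusted p under 0.05 and blue for lower and red for higher in CD133+. CXCL1, CXCL2, CXCL3, CCL20, IL18 and LIF stay negative in each row where they were tested, while no member has an asterisk without the variance trend or without CD133- replicate 1.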

How the data were processed

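Total RNA of SW620 clone cells was hybridised to 4 Affymetrix arrays. Per the submitters' processing notes the authors used Affymetrix Expression Console to make the deposited log2 signals, 1 value per probe set and array. The version, background correction, normalization and summarisation are not given in the sources used here. There were 54675 probe sets, 62 of them controls, with values from 2.52 to 14.57. Array medians differed by 0.144, above a limit of 0.1, so the values without controls were quantile normalized.

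Of the probe sets, 41091 named 1 gene, 1801 several and 11721 none in the platform annotation. They covered 19777 genes, of which 19735 matched RefSeq (GRCh38.p14) by gene ID. A gene was its probe set with the highest mean, and 3956 genes were left out for low signal. CD133+ was set against CD133- in limma 3.58.1 under R 4.3.3 (lmFit, eBayes with trend) and Benjamini-Hochberg adjustment over 15821 genes, or over 37067 probe sets. The fit was tested on simulated data with the same spread for every gene, which cannot show how calls depend on the variance trend. Alternatives were the deposited scale, centred arrays, other level filters, other variance models, the mean of probe sets, the replicate number as a block and leaving out each array, which leaves a lone array assumed to vary like the other group. The number of arrays limits the precision (median SE 0.178), and an exact two-sided permutation test cannot give a p below 0.333 here. Promoters were searched with Python 3.11.15 and aligned with Biopython 1.88.

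The members, lists and tests were chosen with earlier results of these data known. The text names all probe sets of the members, PROM1, the called genes and up to 3 with the smallest p of each list, and NF-kappaB subunits and receptors.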

Additional observations from a re-analysis of the deposited data

How the results depend on the processing

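CXCL1, CXCL2, CXCL3, CCL20, IL18 and LIF kept a negative sign under every alternative in which they were tested, but the calls rest on 2 arrays a clone and on the variance shared between genes. The 577 genes called became 12 with eBayes without trend, 247 with the mean of probe sets, and 124 to 706 leaving out 1 array. Of the 5 members called lower, 3 passed in the values as deposited, 3 with the mean of probe sets, 0 without trend and 0 to 4 leaving out 1 array. The list genes called lower (3) became 0 without trend, 0 with the mean of probe sets and 0 to 4 leaving out 1 array, and those called higher (3) became 0 without trend and 0 to 4 leaving out 1 array. The 188 probe sets called became 10 in the values as deposited, 39 with centred arrays, 99 with no level filter, 337 above the median level, 1 without trend and 9 to 912 leaving out 1 array, with 0 to 2 of the members' among them. The cause of these shifts was not tested.

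Same-numbered arrays deviated together (r = 0.43 over 15821 genes), but 2 pairs cannot show that the numbers pair the samples. With the replicate number as a block 3030 genes and 2856 probe sets were called, including CXCL1 (adjusted p = 0.0148), 6 member probe sets lower, and 9 list genes lower and 13 higher.

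These signs reversed, each with an adjusted p over 0.3. In the values as deposited they were CXCL8 (-0.0075), GSDMD (-0.0063) and NFKBIA probe set 231699_at (0.042). With centred arrays they were CXCL8 (-0.086), GSDMD (-0.085), TYK2 (-0.056) and STAT3 (-0.077). With the mean of probe sets they were TNFAIP3 (-0.045) and SOCS3 (0.068). Leaving out 1 array at a time, the sign turned for CXCL8 (-0.14 to 0.32), NFKBIA (-0.48 to 0.087), TNFAIP3 (-0.015 to 0.41), NFKB1 (-0.18 to 0.16), CXCR1 (-0.022 to 0.33), CXCL8 probe set 211506_s_at (-0.20 to 0.034) and 231699_at (-0.15 to 0.055).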
